A study of Mus musculus with 10 samples.

Results

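RNA levels of 10 immune checkpoint and costimulation genes (Pdcd1, Ctla4, Lag3, Tigit, Havcr2, Cd274, Pdcd1lg2, Vsir, Cd80 and Cd86) were examined in subcutaneous lung tumors of obese mice given liraglutide or vehicle. The genes were taken by symbol from a table of 55401 genes, by a list that names no measured value but was drawn up with earlier results of these data known. Of the 10 genes, 9 passed the filter on low counts and were tested among 17464 genes, and Ctla4 did not pass and is given by its counts. The tumors grew from KPN1.1, a mouse lung adenocarcinoma line, injected into the flank of male C57BL/6J mice that were 7 to 17 weeks old and had diet-induced obesity. Once tumors were palpable, 5 of the mice analyzed here received liraglutide, a glucagon-like peptide-1 receptor agonist, injected intraperitoneally every day at 0.2 μg/g body weight, and 5 received the PBS vehicle. All 10 mice thus shared the tumor line, the diet and the site, and the tumors were harvested between days 19 and 22. Each library was made from a frozen tumor fragment, in which tumor cells, leukocytes and stroma were mixed, and KPN1.1 is 1 line. In such bulk RNA, fewer cells of a type and less RNA per cell cannot be told apart.

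T cells need a signal from the antigen receptor and a second signal through CD28, whose ligands CD80 (Cd80) and CD86 (Cd86) sit on antigen-presenting cells. CTLA-4 (Ctla4) competes with CD28 for the same ligands and dampens the response. PD-1 (Pdcd1), LAG-3 (Lag3), TIGIT (Tigit) and TIM-3 (Havcr2) are further inhibitory receptors of activated T cells and NK cells, and TIM-3 is also made by macrophages and dendritic cells. PD-L1 (Cd274) and PD-L2 (Pdcd1lg2) are the ligands of PD-1, and PD-L1 is induced by interferon-γ in tumor cells and myeloid cells alike. VISTA (Vsir) is an inhibitory molecule found mainly on myeloid cells. Antibodies against CTLA-4 and against PD-1 or PD-L1 are used to treat lung cancer.

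The start-site windows of Cd274 and Havcr2 are printed because these had the highest mean levels per length of the 10 genes and because Havcr2 also had the largest absolute log2 fold change between the treatments. Each window runs from 250 bases before to 50 bases after the annotated start, on the plus strand of GRCm38.p6, from RefSeq, which gave windows for 8 of the 10 genes. The Cd274 window lies at chr19:29367188-29367487 and the Havcr2 window at chr11:46454681-46454980. Capitals mark the matches to any of 4 motifs searched on both strands.
Cd274: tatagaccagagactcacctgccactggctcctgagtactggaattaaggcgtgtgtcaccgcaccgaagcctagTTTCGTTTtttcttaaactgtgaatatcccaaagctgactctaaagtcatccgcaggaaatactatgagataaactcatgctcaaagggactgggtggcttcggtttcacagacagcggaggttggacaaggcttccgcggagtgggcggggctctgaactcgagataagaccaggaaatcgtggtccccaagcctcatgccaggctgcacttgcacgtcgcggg
Havcr2: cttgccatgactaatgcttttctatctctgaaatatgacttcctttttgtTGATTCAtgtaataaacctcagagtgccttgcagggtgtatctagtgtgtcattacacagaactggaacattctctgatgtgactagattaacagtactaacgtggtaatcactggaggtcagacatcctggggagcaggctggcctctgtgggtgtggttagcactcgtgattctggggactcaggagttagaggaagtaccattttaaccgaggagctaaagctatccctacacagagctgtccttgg
In Cd274 the capitals are a match to the core of an interferon regulatory factor motif (AANNGAAA), on the strand opposite to the gene, from 175 to 168 bases before the start. The same core matched once in the windows of Pdcd1, Pdcd1lg2 and Cd80, and 23.9% of all 32851 RefSeq windows held it. In Havcr2 the capitals are a match to the AP-1 motif (TGANTCA) from 200 to 194 bases before the start, which the Cd80 window also held, against 7.81% of all windows. The interferon-stimulated response element (GAAANNGAAA, 3.44% of all windows), which contains the core, and the gamma-activated site (TTCNNNGAA, 8.3%) had no match in the 8 windows. The motifs were chosen with the results known, and a match describes letters in the window and is no evidence of binding.

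Total counts lay between 9927942 and 14480593 in vehicle tumors and between 10336934 and 13105261 in liraglutide tumors. At this depth 3 counts correspond to 0.207 to 0.315 CPM (a count set against the scaled library size), a floor that covers counting error alone. T cell RNA was scarce, and the 12 T cell markers summed to 11.1, 12.9, 16.5, 24.3 and 35.8 CPM in vehicle tumors 1 to 5 and to 13.7, 25.3, 46.9, 33.1 and 35.8 CPM in liraglutide tumors 1 to 5. Ptprc, which encodes the pan-leukocyte protein CD45, was at 35.6, 31.7, 40.9, 77.0 and 70.5 CPM with vehicle and at 37.2, 42.4, 70.5, 74.8 and 71.0 CPM with liraglutide. Vehicle tumors 1 to 3 were therefore low in both, and the groups overlapped in each. The epithelial keratins of the line, Krt8 and Krt18, were abundant in every tumor, with at least 13940 counts each.

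By edgeR's quasi-likelihood test, 0 of the 9 tested checkpoint genes differed between liraglutide-treated and vehicle-treated tumors at an adjusted p under 0.05 with an absolute log2 fold change over 0.58, and 0 of all 17464 genes did (0%). At an unadjusted p under 0.05 there were 2 of the 9, against 9.59% of all genes. These were Pdcd1, the 1 with the higher level in liraglutide tumors (3.97% of all genes), and Havcr2, the 1 with the lower level (5.62% of all genes). limma-voom likewise called 0 of the 9. DESeq2, which called 17 of all genes, left the 10 without an adjusted p through its filtering on low counts, and called 0 of them once that filtering was off. The same 2 genes had an unadjusted p under 0.05 there, against 6.13% of the genes it tested. Of the 9 log2 fold changes, 6 were positive and 3 negative, and their median was 0.36, whereas 47.4% of all genes had a positive value and their median was -0.02. In none of the 10 genes were the CPM of the 5 liraglutide tumors all on one side of the 5 vehicle tumors, which was the case for 1.49% of all tested genes. A two-sided exact permutation test of log2 CPM, for which 5 against 5 tumors allow a smallest p of 0.00794, gave p under 0.05 for 1 of the 10, Havcr2, against 8.50% of all genes. Counts of 1 or 2 genes are close to what these shares over all genes give for 9 or 10 genes.

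**Figure D1:**
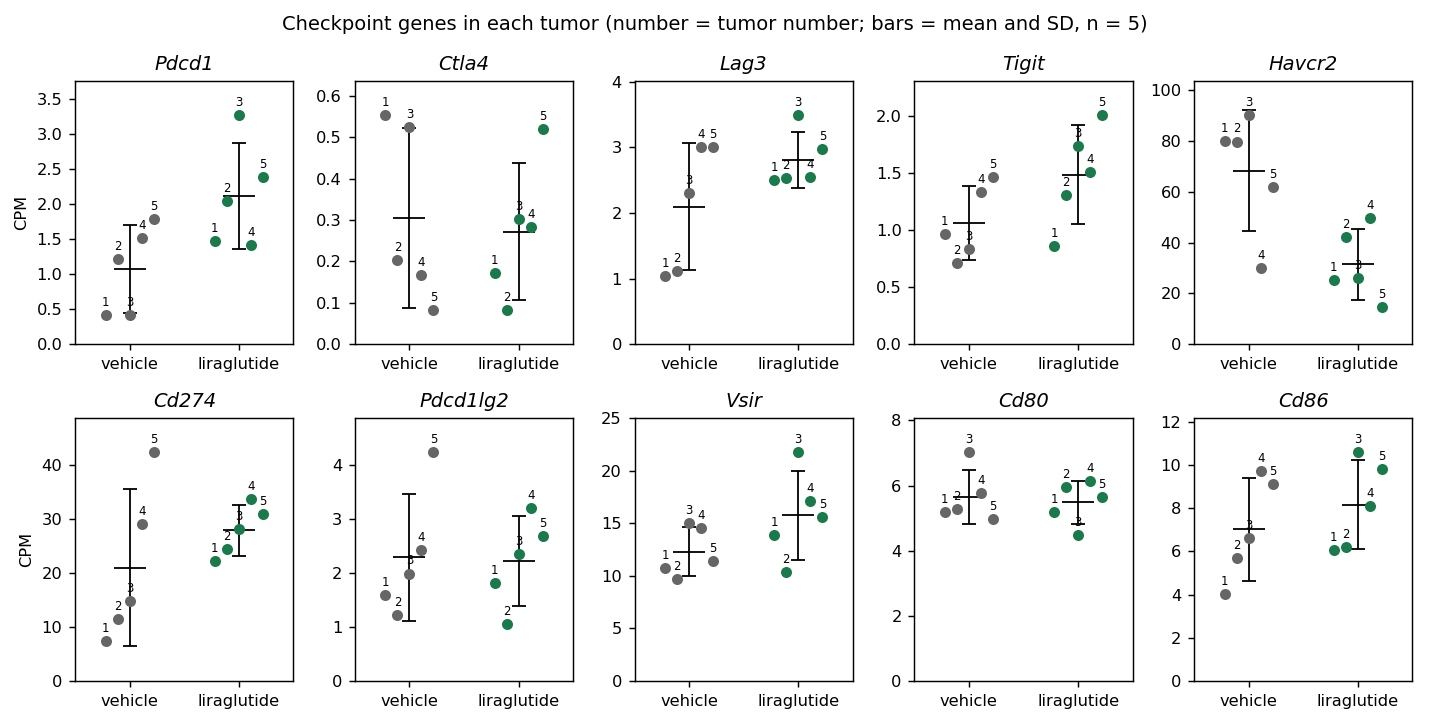
Level of each checkpoint gene in CPM (vertical axes, from 0) in 5 vehicle and 5 liraglutide tumors, with points numbered by tumor and bars for the mean and SD. Havcr2 is the gene in which the liraglutide tumors sit lowest against the vehicle tumors, and in all 10 genes the groups overlap.

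Pdcd1 (ENSMUSG00000026285.7; chromosome 1 of GRCm39, 93966027 to 93980312, minus strand), which encodes PD-1, was low in every tumor. Vehicle tumors 1 to 5 had 0.415, 1.22, 0.420, 1.51 and 1.79 CPM, from 6, 12, 4, 18 and 22 counts. Liraglutide tumors 1 to 5 had 1.47, 2.04, 3.26, 1.42 and 2.38 CPM, from 17, 25, 43, 15 and 32 counts. Of the liraglutide tumors, 3 lay above every vehicle tumor, and the other 2 lay between vehicle tumors 2 and 4. Vehicle tumors averaged 1.07 ± 0.630 CPM and liraglutide tumors 2.11 ± 0.757 CPM (SD, n = 5 each). In edgeR this gave a log2 fold change of 0.98 (standard error 0.43, 95% interval 0.05 to 1.91, unadjusted p = 0.0413, adjusted p = 0.515). The exact permutation test gave p = 0.0556. With 1 tumor left out p ran from 0.0238 (vehicle tumor 5) to 0.135 (liraglutide tumor 3), and it was under 0.05 only without vehicle tumor 4 (0.0397) or 5. With Cd3e, Pdcd1 had r = 0.848 over the 10 tumors (Spearman's rho 0.782, and r 0.610 without the 2 tumors farthest from the median). The counts of Cd3d, Cd3e and Cd3g, which encode chains of the T cell receptor complex, summed to between 11 and 98 in vehicle tumors and between 30 and 144 in liraglutide tumors.

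The value of Pdcd1 against other genes of the same tumor depended on the denominator. Per Ptprc count the mean log2 ratio was higher with liraglutide by 0.87, a 1.83-fold difference that did not pass (exact permutation test, p = 0.0873, and with 1 tumor left out from 0.0317 to 0.159). The liraglutide tumors had 1.89 to 4.82 Pdcd1 counts for every 100 Ptprc counts and the vehicle tumors 1.03 to 3.83, and 3 liraglutide tumors lay above all vehicle tumors. For every 100 Cd3 counts there were 46.2, 109, 18.2, 22.8 and 22.4 Pdcd1 counts in vehicle tumors 1 to 5 and 56.7, 51.0, 29.9, 17.4 and 31.1 in liraglutide tumors 1 to 5. The mean log2 ratio to Cd3 differed by -0.03 (liraglutide minus vehicle, exact permutation test, p = 0.968). With the 12 T cell markers as the denominator the difference was 0.47 (p = 0.230, exact permutation test), so its sign depends on the markers used. Vehicle tumors 1 and 2 rest on 13 and 11 Cd3 counts, and their ratios are correspondingly uncertain.

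Ctla4 (ENSMUSG00000026011.13; chromosome 1, 60926159 to 60954991, plus strand) was at the limit of this depth. The vehicle tumors had 8, 2, 5, 2 and 1 counts and the liraglutide tumors 2, 1, 4, 3 and 7, and 6 of the 10 tumors had 3 counts or fewer. Summed over the group, there were 18 counts with vehicle and 17 with liraglutide. In an edgeR fit that kept all genes with a count, the log2 fold change was -0.15 with a 95% interval from -1.53 to 1.23 (adjusted p = 0.960). Values throughout that interval remain compatible with these counts, and the parts of depth and of spread between tumors in its width were not separated. Foxp3, the defining transcription factor of regulatory T cells, which are known for high CTLA-4, was measured with 17 to 36 counts per tumor and had a log2 fold change of 0.07 (adjusted p = 0.930, edgeR).

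Lag3 (ENSMUSG00000030124.2; chromosome 6, 124881320 to 124888765, minus strand), whose product binds MHC class II, was at 1.04, 1.12, 2.31, 3.01 and 3.01 CPM in vehicle tumors 1 to 5 (11 to 37 counts). Liraglutide tumors 1 to 5 were at 2.51, 2.53, 3.49, 2.55 and 2.98 CPM (27 to 46 counts). Vehicle tumors 1 and 2 were the lowest, and only liraglutide tumor 3 exceeded all vehicle tumors. The groups differed more in spread than in their upper values, with a coefficient of variation of 46.5% with vehicle and 15.2% with liraglutide, a difference that was not tested. Its log2 fold change was 0.42 (standard error 0.32, 95% interval -0.28 to 1.13, adjusted p = 0.668, edgeR). Per 100 Cd3 counts there were 115, 100.0, 100.0, 45.6 and 37.8 Lag3 counts with vehicle and 96.7, 63.3, 31.9, 31.4 and 38.8 with liraglutide (difference of the mean log2 ratio -0.61, exact permutation test, p = 0.206, and -0.10 with the 12 T cell markers as the denominator).

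Tigit (ENSMUSG00000071552.5; chromosome 16, 43469100 to 43484509, minus strand), a receptor that competes for the ligands PVR and Nectin-2, was measured at 0.967, 0.710, 0.840, 1.34 and 1.47 CPM in vehicle tumors 1 to 5 (7 to 18 counts). In liraglutide tumors 1 to 5 it was at 0.864, 1.31, 1.74, 1.51 and 2.01 CPM (10 to 27 counts), and 3 of these exceeded every vehicle tumor. The estimated log2 fold change was 0.47 (standard error 0.30, 95% interval -0.18 to 1.12, adjusted p = 0.609, edgeR). Per Cd3 count the sign was the opposite, with a difference of -0.69 on the log2 scale (exact permutation test, p = 0.238), which was -0.19 with the 12 T cell markers as the denominator and between -0.96 and -0.33 with 1 tumor left out, and per Ptprc count it was 0.21 (exact permutation test, p = 0.190). For the receptors Pdcd1, Lag3 and Tigit, higher mean CPM with liraglutide therefore stood beside higher mean CPM of T cell genes. The part of T cell content in these values was not tested beyond the ratios.

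Havcr2 (ENSMUSG00000020399.14; chromosome 11, 46345673 to 46374149, plus strand) had the largest absolute log2 fold change of the 9 tested genes with all tumors in the fit, while without vehicle tumor 5, liraglutide tumor 1 or liraglutide tumor 5 that of Pdcd1 was slightly larger (1.26 against -1.15, 1.08 against -1.05 and 0.94 against -0.93). TIM-3, its product, binds galectin-9 and phosphatidylserine. The start-site window with the AP-1 match shown above belongs to this gene. Vehicle tumors 1 to 5 were at 80.1, 79.8, 90.1, 30.0 and 61.7 CPM (1160, 787, 858, 358 and 757 counts). Liraglutide tumors 1 to 5 were at 25.1, 42.1, 25.9, 49.5 and 14.5 CPM (291, 516, 342, 524 and 195 counts). All 5 liraglutide tumors were below the vehicle median of 79.8 CPM, 4 vehicle tumors were above every liraglutide tumor, and vehicle tumor 4 lay inside the liraglutide range. Vehicle tumors averaged 68.3 ± 23.8 CPM and liraglutide tumors 31.4 ± 14.1 CPM (SD, n = 5 each), 2.17-fold lower in the fit. On the log2 scale this was -1.12 (standard error 0.35, 95% interval -1.89 to -0.35, unadjusted p = 0.00826, adjusted p = 0.482, edgeR), an adjusted value that the procedure gave alike to other genes, among them Nfatc2, whose unadjusted p was smaller (0.00680).

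The exact permutation test gave p = 0.0317 for Havcr2. The difference in mean log2 CPM stayed between -1.42 and -0.90 with any 1 tumor left out, but p was over 0.05 without vehicle tumor 1, 2 or 3 (0.0714 each), vehicle tumor 5 (0.0635), liraglutide tumor 1 or 3 (0.0556 each) or liraglutide tumor 5 (0.0635), and 5 against 4 tumors allow fewer splits. The highest Havcr2 levels belonged to vehicle tumors 1 to 3, which were low in Ptprc and in T cell markers, whereas liraglutide tumor 1, also low in both, had 25.1 CPM. For every 100 Ptprc counts there were 225, 251, 220.0, 38.9 and 87.4 Havcr2 counts in vehicle tumors 1 to 5 and 67.5, 99.4, 36.8, 66.2 and 20.4 in liraglutide tumors 1 to 5. Vehicle tumors 1 to 3 stood far above all the others, and vehicle tumors 4 and 5 lay within the liraglutide range. The mean log2 ratio was lower by 1.40 with liraglutide, a 2.63-fold difference that did not pass (exact permutation test, p = 0.0714). With 1 tumor left out the exact p ran from 0.0238 without vehicle tumor 4 to 0.135. Over the 10 tumors Havcr2 and Ptprc had r = -0.512. A low Ptprc count, as in vehicle tumors 1 to 3, itself raises the ratio, so the ratio is no measure of Havcr2 per leukocyte. Which cells made the Havcr2 RNA was not tested.

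**Figure D2:**
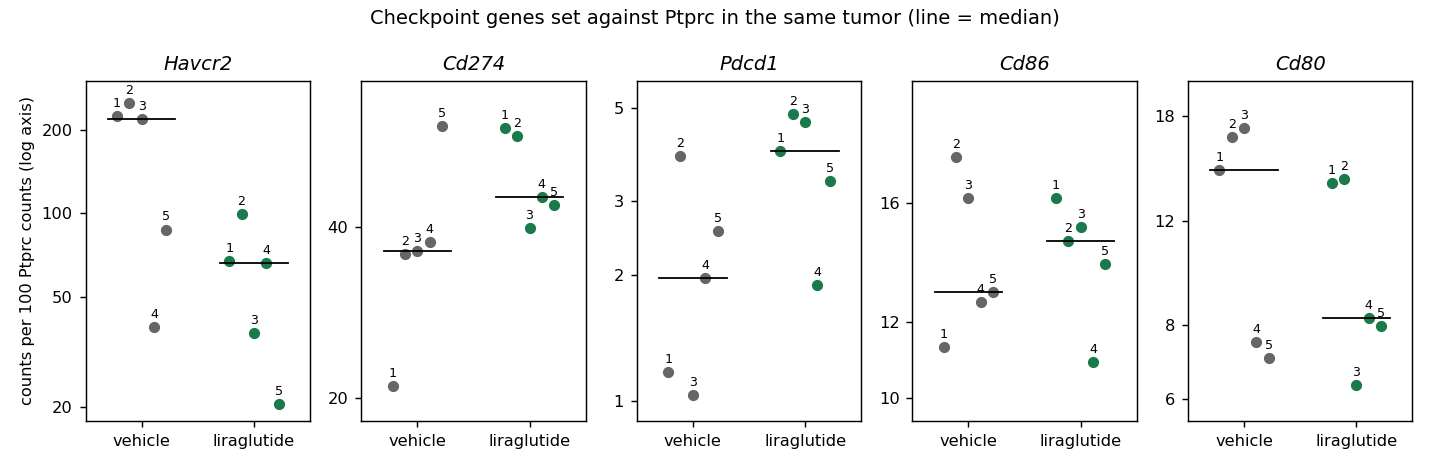
Counts of 5 checkpoint genes per 100 Ptprc counts in each tumor (vertical log axes), with points numbered by tumor and a line at the median of 5 tumors. For Havcr2, vehicle tumors 1 to 3 lie between 220.0 and 251 and all other tumors at 99.4 or lower.

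Cd274 (ENSMUSG00000016496.7; chromosome 19, 29344529 to 29365495, plus strand) was the second most abundant of the genes per length. Vehicle tumors 1 to 5 had 7.46, 11.4, 14.8, 29.0 and 42.4 CPM, and liraglutide tumors 1 to 5 had 22.2, 24.4, 28.1, 33.7 and 31.0 CPM. The vehicle tumors spanned a 5.68-fold range that enclosed all 5 liraglutide tumors, which spanned 1.52-fold. Vehicle tumors averaged 21.0 ± 14.4 CPM and liraglutide tumors 27.9 ± 4.70 CPM (SD, n = 5 each). The difference came to a log2 fold change of 0.41 (standard error 0.40, 95% interval -0.46 to 1.28, adjusted p = 0.736, edgeR), and the exact permutation test gave p = 0.183. The extreme vehicle tumors moved these values most. Without vehicle tumor 5 the log2 fold change was 0.84 (adjusted p = 0.338, edgeR) and the exact p 0.0397, and without vehicle tumor 1 they were 0.19 (adjusted p = 0.923, edgeR) and 0.389.

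Per 100 Ptprc counts, Cd274 had 21.0, 35.8, 36.2, 37.6 and 60.0 counts in vehicle tumors 1 to 5 and 59.6, 57.6, 39.8, 45.1 and 43.7 in liraglutide tumors 1 to 5. Vehicle tumors 1 to 4 lay below all 5 liraglutide tumors and vehicle tumor 5 above them (difference of the mean log2 ratio 0.43, exact permutation test, p = 0.135, and with 1 tumor left out from 0.0159 without vehicle tumor 5 to 0.270). On the opposite strand, Cd274 shared 219 exonic bases (5.366% of its own) with the protein-coding gene Plgrkt and 581 (14.237%) with the noncoding gene Gm36043. The libraries marked strand, but the strand setting of the counting is not given in the sources used here, so reads in those bases could not be assigned with certainty.

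Pdcd1lg2 (ENSMUSG00000016498.10; chromosome 19, 29388319 to 29448882, plus strand), the other PD-1 ligand gene and a neighbor of Cd274, was at 1.59, 1.22, 1.99, 2.43 and 4.24 CPM in vehicle tumors 1 to 5 (12 to 52 counts). In liraglutide tumors 1 to 5 it was at 1.81, 1.06, 2.35, 3.21 and 2.68 CPM (13 to 36 counts). The groups covered nearly the same range, and each summed to 135 counts. edgeR put the log2 fold change at -0.05 (standard error 0.37, 95% interval -0.87 to 0.77, adjusted p = 0.975). Values throughout that interval remain compatible with the counts of Pdcd1lg2. The sign of the log2 fold change was reversed with library size alone in place of the scaled size (0.01) and with some of the tumors left out.

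Vsir (ENSMUSG00000020101.14; chromosome 10, 60182630 to 60208463, plus strand) lies within Cdh23 on the opposite strand, with no exonic base in common. It was at 10.8, 9.73, 15.0, 14.6 and 11.4 CPM in vehicle tumors 1 to 5 and at 13.9, 10.4, 21.8, 17.1 and 15.6 CPM in liraglutide tumors 1 to 5. Of the liraglutide tumors, 3 exceeded all vehicle tumors, led by tumor 3. A log2 fold change of 0.36 was estimated (standard error 0.20, 95% interval -0.09 to 0.81, adjusted p = 0.588, edgeR). Per Ptprc count the difference was 0.09 on the log2 scale (exact permutation test, p = 0.754), and without vehicle tumor 4, vehicle tumor 5 or liraglutide tumor 1 it was negative.

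Cd80 (ENSMUSG00000075122.5; chromosome 16, 38275923 to 38316697, plus strand) was the most even of the genes, with a coefficient of variation of 12.9% over the 10 tumors. It was at 5.18, 5.27, 7.03, 5.77 and 4.97 CPM in vehicle tumors 1 to 5 and at 5.18, 5.96, 4.47, 6.14 and 5.66 CPM in liraglutide tumors 1 to 5. The highest and the lowest value both belonged to a tumor number 3, from different groups. edgeR gave it a log2 fold change of -0.04 (95% interval -0.40 to 0.32, the narrowest among the 10 genes, standard error 0.16, adjusted p = 0.946). Its sign changed with library size alone (0.01). Cd80 shared 276 exonic bases (6.683% of its own) with Timmdc1 and 70 (1.695%) with Gm60172, both on the opposite strand.

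Cd86 (ENSMUSG00000022901.13; chromosome 16, 36424044 to 36486443, minus strand), the other ligand of CD28 and CTLA-4, varied more, at 4.01, 5.68, 6.61, 9.71 and 9.12 CPM in vehicle tumors 1 to 5 and 6.05, 6.20, 10.6, 8.12 and 9.83 CPM in liraglutide tumors 1 to 5. Vehicle tumors 3 to 5 lay within the liraglutide range. Vehicle tumors 1 and 2 lay below it, and vehicle tumor 1 was the lowest of all. The estimate was a log2 fold change of 0.22 (standard error 0.26, 95% interval -0.36 to 0.80, adjusted p = 0.788, edgeR). Per Ptprc count the difference was 0.00 on the log2 scale (exact permutation test, p = 0.984), with 11.3 to 17.9 Cd86 counts for every 100 Ptprc counts with vehicle and 10.9 to 16.2 with liraglutide. For every 100 Ptprc counts there were 7.04 to 17.2 Cd80 counts with vehicle and 6.34 to 14.1 with liraglutide (difference -0.29, exact permutation test, p = 0.365). Across the 14 ratios tested, 10 to Ptprc and 4 to Cd3, 0 had an exact p under 0.05.

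**Figure D3:**
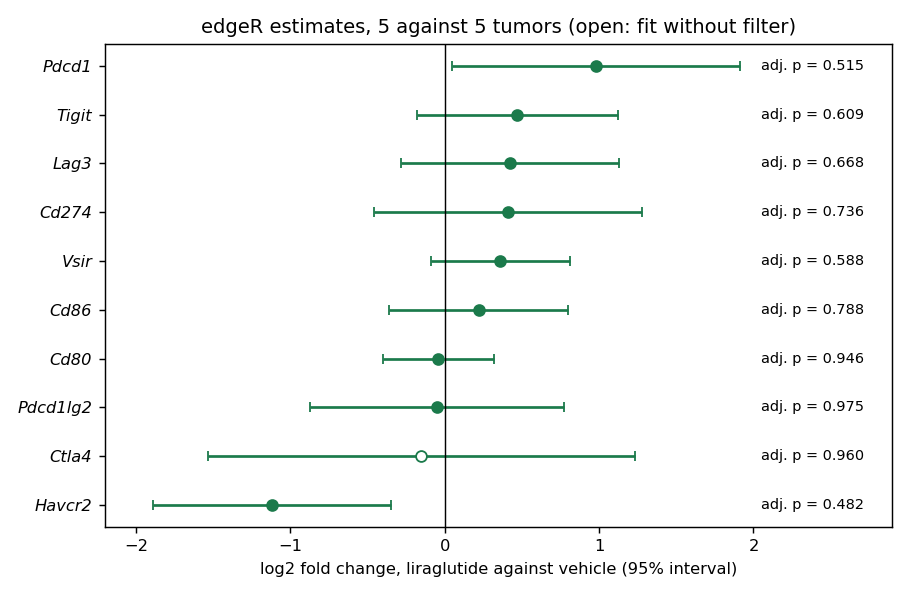
Log2 fold change of each checkpoint gene, liraglutide against vehicle, with its 95% interval from edgeR (horizontal axis) and the adjusted p at the right, in 5 against 5 tumors. Only the intervals of Pdcd1 (0.05 to 1.91) and Havcr2 (-1.89 to -0.35) exclude 0, before adjustment for all genes, and the open symbol for Ctla4 comes from the fit on all genes with a count.

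Per kilobase of exon, the genes spanned a wide range of levels. Over all 10 tumors Havcr2 had the highest mean level per length, at 10.2 ± 5.49 CPM per kb (SD, n = 10 tumors), followed by Cd274 at 5.99 ± 2.64, Vsir at 2.80 ± 0.739 and Cd86 at 1.97 ± 0.568 CPM per kb. Cd80 followed at 1.35 ± 0.174, Tigit at 1.22 ± 0.406, Lag3 at 1.10 ± 0.362, Pdcd1lg2 at 0.989 ± 0.420 and Pdcd1 at 0.809 ± 0.435, and Ctla4 came last at 0.124 ± 0.0785 CPM per kb. Neighbors in this order were compared within tumors by a two-sided exact permutation test (random signs for each tumor's log2 difference, all combinations). The 9 comparisons were not adjusted, and the order was taken from the means of the same tumors. Each gene's exon length is the same in all 10 tumors, so these p do not cover error in that length. Havcr2 exceeded Cd274 in 6 of 10 tumors (p = 0.164, exact), in 4 of 5 with vehicle and 2 of 5 with liraglutide. Their order differed between the group means, with Havcr2 above Cd274 (5.14 CPM per kb) with vehicle, and Havcr2 at 6.45 below Cd274 at 6.83 CPM per kb with liraglutide. With liraglutide Tigit (1.42) also had a higher mean than Cd80 (1.33), and Pdcd1 (1.07) a higher mean than Pdcd1lg2 (0.974 CPM per kb), and with vehicle Pdcd1lg2 (1.00) had a higher mean than Lag3 (0.944 CPM per kb), each the reverse of the order over all tumors. Cd274 exceeded Vsir and Vsir exceeded Cd86 in 9 of 10 tumors each (exact p = 0.00391 each), and Cd86 exceeded Cd80 in 9 of 10 (exact p = 0.0137). From Cd80 through Tigit, Lag3 and Pdcd1lg2 to Pdcd1, neighbors did not differ beyond their spread (exact p between 0.227 and 0.354). Pdcd1 exceeded Ctla4 in 8 of 10 tumors (exact p = 0.00781).

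**Figure D4:**
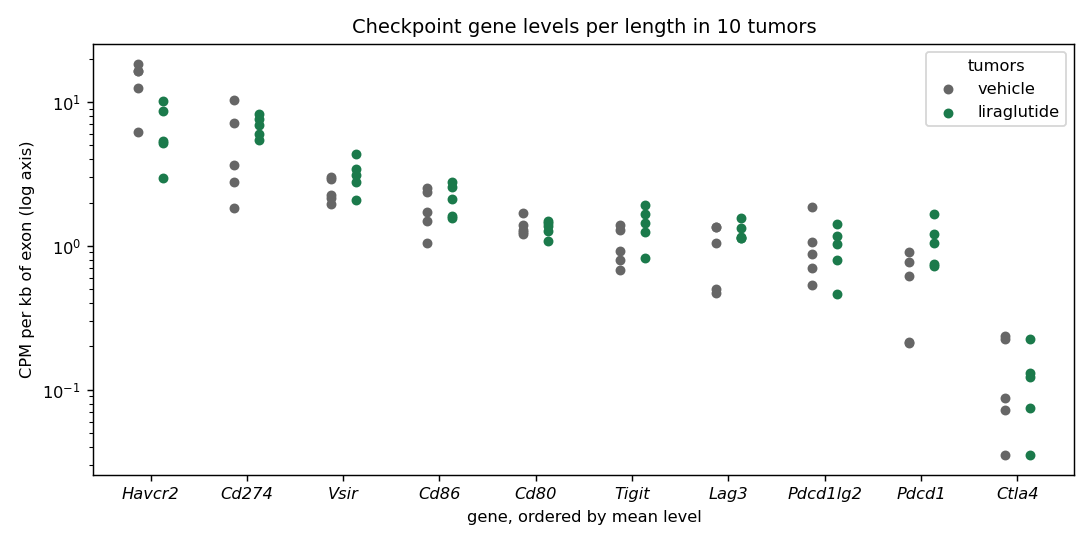
Level of each checkpoint gene in CPM per kilobase of exon (log axis) in every tumor, ordered by the mean over 10 tumors. Havcr2 and Cd274 lead with means of 10.2 and 5.99, and Ctla4 is last at 0.124.

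The genes fell into patterns over the tumors, which are described here by Pearson's r of log2 CPM over the 10 tumors, without a test, since the tumors share their treatment groups and their leukocyte content. Cd274, Lag3 and Cd86 varied together, with r = 0.900 for Cd274 with Lag3 (Spearman's rho 0.830), 0.858 for Cd274 with Cd86 (rho 0.745) and 0.867 for Lag3 with Cd86 (rho 0.915). Without the 2 tumors farthest from the median of the first gene, these were 0.606, 0.627 and 0.890, so part of the Cd274 relations rests on those tumors. Cd274 followed Cd3e with r = 0.903 (rho 0.830, and 0.868 without the 2 farthest tumors), and within the treatment groups r was 0.880. Tigit followed Cd3e (r = 0.886, rho 0.879), Cd86 followed Ptprc (r = 0.893, rho 0.794), and Vsir followed Csf1r, the receptor that marks macrophages (r = 0.950, rho 0.964).

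Havcr2 ran the other way. Its r was negative with 7 of the other 8 tested members, at -0.737 with Pdcd1 (rho -0.770), -0.656 with Tigit (rho -0.600) and -0.568 with Cd274 (rho -0.442), and -0.512 with Ptprc (rho -0.442). Within the treatment groups these 3 values for Pdcd1, Tigit and Cd274 were smaller in size, at -0.532, -0.489 and -0.395. For Pdcd1 r was -0.568 without the 2 tumors farthest from the Pdcd1 median. For Cd274 it was -0.264 without the 2 farthest from the Cd274 median, and for Tigit -0.390 without the 2 farthest from the Havcr2 median. With Cd80 the r of Havcr2 over all 10 tumors was 0.267. With Mrc1, which encodes the mannose receptor of macrophages and was picked for this relation after its values were seen, r was 0.769 (rho 0.709, 0.700 within groups and 0.578 without the 2 farthest tumors). With Csf1r, another macrophage gene, Havcr2 had r = -0.529 (rho -0.479, and -0.407 within groups). Mrc1 was the 1 of 9 tested macrophage and monocyte markers with a negative log2 fold change (-0.74, adjusted p = 0.529, edgeR). Its medians were 673 CPM with vehicle and 339 CPM with liraglutide, against 42.4 and 49.9 CPM for Csf1r. Which cells made the Mrc1 RNA was not tested. Cd80 had r between -0.485 (Pdcd1) and 0.267 (Havcr2) with the other members over all 10 tumors. Without the 2 tumors farthest from the median of the other gene in each pair, r was -0.791 with Lag3, -0.545 with Cd274 and 0.476 with Vsir.

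**Figure D5:**
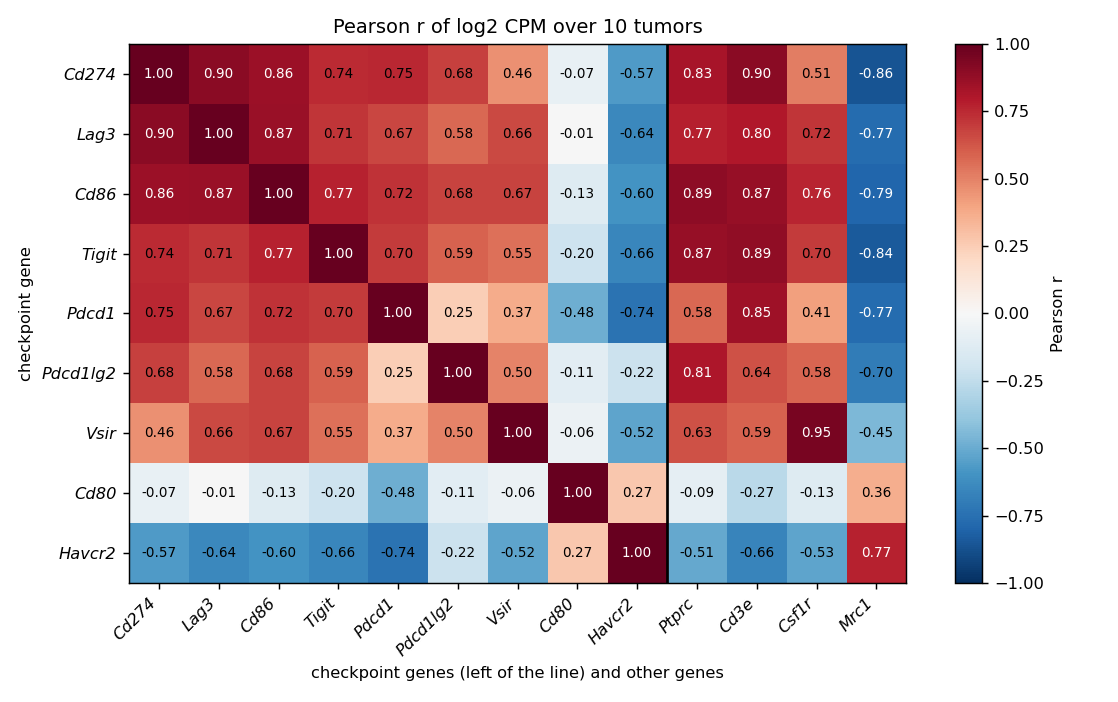
Pearson r of log2 CPM over 10 tumors between 9 checkpoint genes (rows) and, left of the line, the same genes and, right of it, 4 other genes (columns), with red for positive and blue for negative r. Pdcd1, Cd274, Lag3, Cd86 and Tigit are positive with each other and with Ptprc and Cd3e, while Havcr2 is positive with Mrc1 (0.77) and negative with most of the others.

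Among all other tested genes, those most like each member over the 10 tumors differed in kind. For Cd274 they were the interferon-induced genes Ifi44 (r = 0.996), Nlrc5 (0.987), the transactivator of MHC class I genes, and Tap1 (0.985), the peptide transporter. For Lag3, Mndal (r = 0.979) and Bst2 (0.978), both interferon-induced, followed a gene whose identifier was not matched to a symbol (0.984). For Vsir they were Slc16a13 (r = 0.956), Csf1r (0.950) and Bmp5 (0.944), and for Cd86 Ppargc1b (0.990), Pced1b (0.987) and Parp3 (0.982). For Havcr2 they were Tmem163 (r = 0.978), Upp1 (0.974), a uridine phosphorylase, and Nsun2 (0.964), an RNA methyltransferase. Tmem163 and Upp1 also had negative log2 fold changes of similar size (-0.97 and -1.10), and Nsun2 had -0.21. For the rarer genes, the highest r were with Kmt2c for Pdcd1 (0.943), Pklr for Pdcd1lg2 (0.972), Actmap for Tigit (0.969) and Dcp1b for Cd80 (0.889). These are the top ranks among 17464 genes over 10 tumors, where high r arise readily.

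The other genes of the pathway were described from lists. Of 8 other costimulatory receptors 6 were tested, of which 3 were higher with liraglutide (positive log2 fold change), and the median was 0.03, and Cd28 itself, with 56 counts over all tumors, was not tested. Of 6 costimulatory ligands 3 were tested, 1 positive, with a median of -0.27. Of 11 other inhibitory receptors 8 were tested, 5 positive, with a median of 0.09, and the smallest p belonged to Klrc1, the NKG2A receptor gene, with medians of 47.0 CPM with vehicle and 11.8 CPM with liraglutide (log2 fold change -1.22, adjusted p = 0.577, edgeR), and to Sirpa, the receptor for CD47 (0.41, adjusted p = 0.584). Of 16 inhibitory ligands and partners 14 were tested, 8 positive, with a median of 0.06. None of the tested genes in these or the following lists passed the adjusted threshold.

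Among those partners, Nectin2, a TIGIT ligand, was at 34.1 to 65.9 CPM with vehicle and 52.0 to 84.6 CPM with liraglutide (log2 fold change 0.58, unadjusted p = 0.0136, adjusted p = 0.482, edgeR). Igsf11, a VISTA ligand, was at 2.04 to 12.5 CPM with vehicle and 1.12 to 6.80 CPM with liraglutide (log2 fold change -1.21, unadjusted p = 0.0487, adjusted p = 0.519, edgeR). Lgals9, which encodes galectin-9, had a log2 fold change of 0.26, and Cmtm6, which stabilizes PD-L1 at the cell surface, of 0.24 (adjusted p = 0.827 and 0.626, edgeR). Of 12 signaling partners that act below the receptors, 11 were positive, with a median of 0.39. They included Ptpn6, the SHP-1 phosphatase gene (0.53, adjusted p = 0.529, edgeR), and Pik3r1, a phosphoinositide 3-kinase subunit (0.45, adjusted p = 0.503, edgeR).

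Of the 10 genes on the interferon-γ route to PD-L1, 9 were tested and 7 were positive, with a median of 0.25. Irf1, which acts on the Cd274 promoter, was at 38.7 to 152 CPM with vehicle and 82.9 to 132 CPM with liraglutide, and so shared with Cd274 a wide vehicle range around a narrower liraglutide range. It had a log2 fold change of 0.60 (adjusted p = 0.605, edgeR) and Stat3 of 0.33 (adjusted p = 0.562), and Ifng itself had 0 to 11 counts per tumor and was not tested. Of 5 immunosuppressive enzymes 4 were positive, with a median of 0.14. Of 12 regulators of T cell activation and exhaustion, 10 were tested and 6 were positive, with a median of 0.05. Nfatc2, a calcium-regulated transcription factor, was at 10.4 to 33.0 CPM with vehicle and 20.2 to 51.9 CPM with liraglutide. Its log2 fold change was 1.11 (unadjusted p = 0.00680, adjusted p = 0.482, edgeR), and that of Nr4a2 was 0.57 (adjusted p = 0.482, edgeR). The T cell gene Cd3e was at 0.345 to 3.01 CPM with vehicle and 1.12 to 4.47 CPM with liraglutide. Which cells made the Nfatc2 and Nr4a2 RNA was not tested.

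Markers of the cell types in the fragments are given by the same counts, and none passed the adjusted threshold. Of the 12 T cell markers 11 were positive, with a median of 0.71. Among them were Cd2 (1.11, adjusted p = 0.560, edgeR) and Trac (0.67). All 5 tested genes of the 7 on the NK cell list were positive, with a median of 0.80. These were Klrd1, Klrk1, Gzma, Gzmb and Prf1, and whether their RNA came from NK cells or T cells was not tested. Ncr1 and Klrb1c, with 86 and 67 counts over all tumors, did not pass the filter. Of 9 tested macrophage and monocyte markers of 10, 8 were positive, with a median of 0.17, and Mrc1 was the negative one. The medians were 0.07 for 3 regulatory T cell markers, -0.16 for 6 tested dendritic cell markers of 8, 0.01 for 3 tested neutrophil markers of 5 (Ly6g was at 0 in every tumor), and 0.21 for 4 pan-leukocyte genes. None of the 5 B cell markers was tested, with 0.571 to 4.97 CPM in all. For 7 epithelial markers the median was 0.27, with 4 positive and 3 negative (Krt8 -0.26, Krt18 -0.23 and Krt19 -0.33). Nkx2-1 had the smallest p of these (0.99, unadjusted p = 0.0495, adjusted p = 0.520, edgeR). The median was 0.24 for 5 fibroblast markers and -0.04 for 3 endothelial markers. The 6 skin and muscle genes, which mark host tissue at the flank, were all positive, with a median of 1.25, and summed to 28.0, 46.0, 205, 41.4 and 80.2 CPM with vehicle and 50.4, 231, 169.8, 199.8 and 274 CPM with liraglutide. Krt14 was at 2.00 to 11.6 CPM with vehicle and 3.71 to 93.9 CPM with liraglutide (2.36, adjusted p = 0.482, edgeR). The part of these cell types in the values of the checkpoint genes was not tested.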

How the data were processed

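Counts of RNA-Seq reads per gene were analyzed in 10 tumors. The authors depleted ribosomal RNA, mapped 100-base read pairs with Bowtie and TopHat to GRCm39 (the submitters' processing notes also name mm10 and GRCh38), counted them with featureCounts, left out samples at quality control, and deposited raw counts. The annotation release and strand setting are not given in the sources used here. Identifiers were matched without version to GENCODE M39 (51731 of 55401, with 98.31% of the counts, 35 at the same version), which gave symbols, positions and lengths, so gene models may differ in detail. Groups and tumor numbers came from the sample titles, and each sample is labelled as a separate tumor.

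Genes were filtered (filterByExpr), scaled by TMM and tested with edgeR 4.0.16 (quasi-likelihood F test, R 4.3.3) with treatment as the factor and Benjamini-Hochberg adjustment over 17464 genes. Calls were made at an adjusted p under 0.05 where the absolute log2 fold change was over 0.58. Exact two-sided permutation tests served for single genes (log2 CPM, prior count 2), and ratios as log2((count + 0.5)/(denominator count + 0.5)). The alternatives were DESeq2 1.42.0 with and, added after seeing the data, without independent filtering, limma-voom 3.58.1, other scalings, no filter, the tumor number as a block, other denominators, prior counts and pseudocounts, and each tumor left out. The scripts were tested on simulated data. Genes named beyond the 10 are drawn from the 2 smallest p per list, the 3 most alike per gene and those a statement needed. The members, lists, motifs and tests were chosen with earlier results of these data known.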

Additional observations from a re-analysis of the deposited data

How the results depend on the processing

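The count of checkpoint genes called across all genes was 0 in every alternative. For all genes the count was 17 with DESeq2 and 9 with DESeq2 without independent filtering, against 0 with edgeR, and 0 again with each tumor left out. DESeq2's independent filtering gave the 10 checkpoint genes no adjusted p. Without that filtering the adjusted p was 0.318 for Havcr2 and 0.725 for Pdcd1. With library size alone, Pdcd1lg2 and Cd80 each had a log2 fold change of 0.01 in place of -0.05 and -0.04, with differences in mean log2 CPM of 0.05 and 0.01, and the exact test passed 2 genes, Havcr2 and Pdcd1 (difference 1.05, exact p = 0.0476), in place of 1. Per 4 pan-leukocyte genes the ratio of Cd86 differed by -0.02, and per 12 T cell markers that of Pdcd1 by 0.47. Under the alternatives that kept all tumors, 6 values changed sign. The causes were not tested.

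The tumor number was tried as a replicate block. The deviations of same-numbered tumors had correlations of 0.354, 0.565, -0.0753, 0.0681 and 0.389 (mean 0.260, against -0.0682 for different numbers). As these were not all over 0.1, only tumors numbered 2 correlated best with their own number, and the labels do not say what a number marks, the numbers were not taken to pair the tumors. With the block, 0 genes were called, and 2585 genes (14.8%) had an unadjusted p under 0.05 in place of 1675 (9.59%). Of the 9 checkpoint genes, 4 did in place of 2, with log2 fold changes of -1.18 for Havcr2 (adjusted p = 0.259, edgeR), 1.03 for Pdcd1 (adjusted p = 0.320), 0.65 for Cd274 (adjusted p = 0.326) and 0.34 for Vsir (adjusted p = 0.287), which was higher with liraglutide in 5 of 5 same-numbered pairs. In the exact tests the block passed 0 genes, since 5 pairs allow no p under 0.0625, and the difference of Havcr2 was -1.15 (exact p = 0.125).

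With each tumor left out, the exact test passed 0 to 2 checkpoint genes and the ratio to Ptprc 0 to 1. The log2 fold change ranged from -0.21 to 0.30 for Pdcd1lg2, from -0.08 to 0.05 for Cd80, from 0.19 to 0.84 for Cd274, from 0.76 to 1.26 for Pdcd1 and from -1.34 to -0.93 for Havcr2. The difference in mean log2 CPM ranged from -0.18 to 0.23 for Pdcd1lg2, from -0.26 to 0.12 for Ctla4, from -0.08 to 0.04 for Cd80 and from -1.42 to -0.90 for Havcr2. The difference per Ptprc count ranged from -0.78 to 0.03 for Ctla4, from -0.08 to 0.22 for Vsir and from -0.07 to 0.09 for Cd86, and that of Pdcd1 per Cd3 count from -0.24 to 0.37. The ratio of Pdcd1 to Ptprc passed without vehicle tumor 2 or liraglutide tumor 4 (differences of 1.12 and 1.09). Lag3 ranged from 0.24 to 0.60, Tigit from 0.34 to 0.62, Vsir from 0.21 to 0.48 and Cd86 from 0.07 to 0.37 in log2 fold change. Pdcd1, Ctla4, Lag3, Tigit and Pdcd1lg2 had 1 to 52 counts per tumor, and how much of their spread is counting error was not tested.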
